A study of Homo sapiens with 18 samples.

Results

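DU145 cells that received siRNA against Stat5a/b were compared directly with DU145 cells that received siRNA against Stat3. The contrast took the 3 Stat5a/b siRNA arrays minus the 3 Stat3 siRNA arrays, 6 of the 18 arrays of the series, and no control array entered its differences. The 3 arrays of DU145 cells with scramble siRNA, the control of scrambled sequence, show on which side of the contrast a gene moved. The same 3 treatments of CWR22Rv1 cells, 3 arrays each, served as the comparison line. DU145 is an established line from a brain metastasis of prostate carcinoma that does not depend on androgen, and CWR22Rv1 comes from a relapsed prostate cancer xenograft and keeps the androgen receptor. Each is 1 line in culture, grown per the labels in RPMI medium with serum, transfected with siRNA with Lipofectamine and harvested 48 h later. Transcripts were measured on Affymetrix U133 Plus 2.0 arrays. RNA was kept apart for the 3 arrays of a group. Whether those came from separate cultures is not in the labels, and the p-values therefore reflect array-to-array spread that may be technical only.

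STAT3 and STAT5 are latent transcription factors that Janus kinases phosphorylate below cytokine and growth factor receptors. Once phosphorylated they pair, enter the nucleus and bind the same class of palindromic DNA element, the GAS. In prostate cancer cells both have been studied as drivers of survival and progression, with STAT5 encoded by the neighbouring genes STAT5A and STAT5B. Type I interferon signals through the receptor chains IFNAR1 and IFNAR2 to a different STAT complex, which holds IRF9 and binds a separate element, the ISRE, in front of antiviral genes.

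The arrays had medians of 5.16 to 5.2 on the deposited log2 scale. All levels below are such log2 values, and differences are Stat5a/b siRNA minus Stat3 siRNA unless another pair is named, with the standard error (SE) of the fit. The 3 Stat5a/b siRNA arrays were not equally alike: replicates 1 and 2 differed by a mean of 0.118 per gene, whereas replicate 3 differed from them by 0.195 and 0.201. The 3 Stat3 siRNA arrays differed by 0.170 to 0.194. Without Stat5a/b replicate 3 the contrast described below called 2116 genes. Of the epithelial markers, KRT18 was at 13.07 ± 0.05 in Stat5a/b siRNA cells and 12.85 ± 0.04 in Stat3 siRNA cells (mean ± SD, n = 3 each), and EPCAM was at 10.75 ± 0.14 and 10.66 ± 0.07. The androgen-dependent kallikrein KLK2 was near the floor of the arrays in DU145, at 3.74 ± 0.07 with Stat5a/b siRNA and 3.81 ± 0.30 with Stat3 siRNA, whereas it was at 9.94 ± 0.07 with Stat5a/b siRNA in CWR22Rv1. KLK3, the other androgen-dependent kallikrein, did not separate the lines, at 6.87 ± 0.30 in the DU145 and 6.84 ± 0.10 in the CWR22Rv1 cells with Stat5a/b siRNA. Of the basal, neuroendocrine, fibroblast, endothelial and leukocyte markers, 2 were called in the contrast, where 12% of all genes were. They were the endothelial CLDN5 (1 of 8), lower, and the leukocyte MS4A1 (1 of 9), higher. The summed level of the 6 basal markers was 28.3 to 29.3 with Stat5a/b siRNA and 29.6 to 30.3 with Stat3 siRNA, without overlap. At 30.7% of all genes the arrays of these 2 groups did not overlap either. The part of the basal markers in the results was not tested. Fewer cells of a type and less RNA per cell cannot be told apart in such bulk samples.

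Each siRNA group was low in its own target. STAT3 was at 11.08, 11.12 and 10.97 in the 3 Stat5a/b siRNA arrays, against 9.45, 9.19 and 9.20 in the 3 Stat3 siRNA arrays, with 10.91, 10.96 and 10.82 in the scramble arrays. The Stat5a/b siRNA arrays lay close to the scramble arrays, and all of them above the Stat3 siRNA arrays. The difference was 1.78 ± 0.09, a 3.42-fold higher level with Stat5a/b siRNA (adjusted p = 1.6e-05, limma with Benjamini-Hochberg adjustment over all genes). STAT3 transcript with Stat3 siRNA was 32.6% of the scramble level. The 3 other STAT3 probe sets also differed. A pair of them differed by 1.98 and 1.75 and were called in a fit over all probe sets, and the third differed by 1.67 but was not called (adjusted p = 0.070), with 5.13, 5.28 and 7.53 in the Stat5a/b siRNA arrays.

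STAT5B was at 6.8, 6.63 and 6.61 in the Stat5a/b siRNA arrays, against 8.13, 7.87 and 7.81 in the Stat3 siRNA arrays, with 7.95, 8.01 and 8.16 in the scramble arrays. The difference was -1.25 ± 0.11 (adjusted p = 7.7e-05), and the Stat5a/b siRNA level was 39.1% of scramble. STAT5A moved less: its values were 5.90, 5.92 and 5.75 with Stat5a/b siRNA and 6.19, 6.21 and 6.13 with Stat3 siRNA, against 6.18, 6.12 and 6.17 with scramble. The arrays of the siRNA groups did not overlap, but the difference of -0.32 ± 0.08 (adjusted p = 0.021) left 81.1% of the scramble level and was no longer called in several other fits, with adjusted p of 0.083 over all 18 arrays. Among 4 other STAT5B probe sets, 1 fell by 0.87 (adjusted p = 0.0024), 1 had a difference of -0.43 (adjusted p = 0.071), and the others had differences of 0.17 and 0.44 that were not called. The labels give no siRNA sequences, so the part of each transcript that was targeted is not used here.

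The STAT genes that no siRNA targeted were not called. STAT4 had 7.70, 7.59 and 6.74 with Stat5a/b siRNA and 7.92, 7.72 and 7.19 with Stat3 siRNA, against 8.67, 8.72 and 7.99 with scramble. Both siRNA groups lay below all scramble arrays at STAT4, and their difference from each other was -0.27 (adjusted p = 0.61). STAT6 differed by -0.16 (adjusted p = 0.25).

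**Figure D1:**
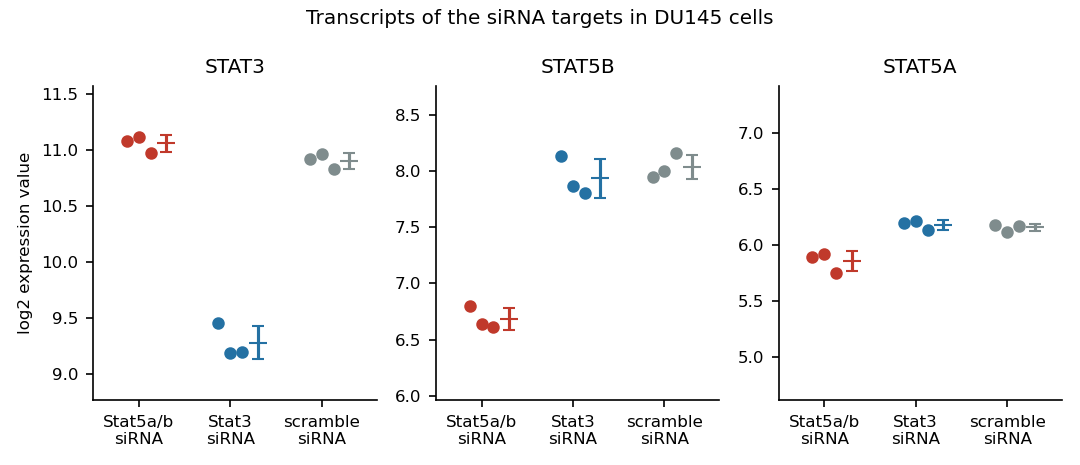
Log2 expression values of STAT3, STAT5B and STAT5A in DU145 cells, 1 point per array (Stat5a/b siRNA, Stat3 siRNA, scramble siRNA, from left to right), with the mean and SD of the 3 arrays beside the points. STAT3 is low with Stat3 siRNA alone, STAT5B is low with Stat5a/b siRNA alone, and the STAT5A shift is the smallest, at -0.32; all 3 panels span the same range of log2 units.

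Across the genes tested, the contrast was large and even in direction. Of 19775 genes, 2379 (12%) were called at an adjusted p under 0.05, 1176 (5.95%) as higher and 1203 (6.08%) as lower with Stat5a/b siRNA. Of these, 188 (0.951%) differed at least 2-fold, 115 of them higher and 73 lower. The median size of a called difference was 0.48, and the smallest was 0.24. Arrays of the 2 siRNA groups did not overlap at 6072 genes (30.7%). In the same fit, Stat5a/b siRNA against scramble gave 2877 called genes (14.5%) and Stat3 siRNA against scramble 1549 (7.83%). These comparisons share arrays with the contrast and with each other, so their values are set beside it only to locate a gene. An siRNA's effect through its target and its effects on other transcripts cannot be told apart with the siRNAs used.

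**Figure D2:**
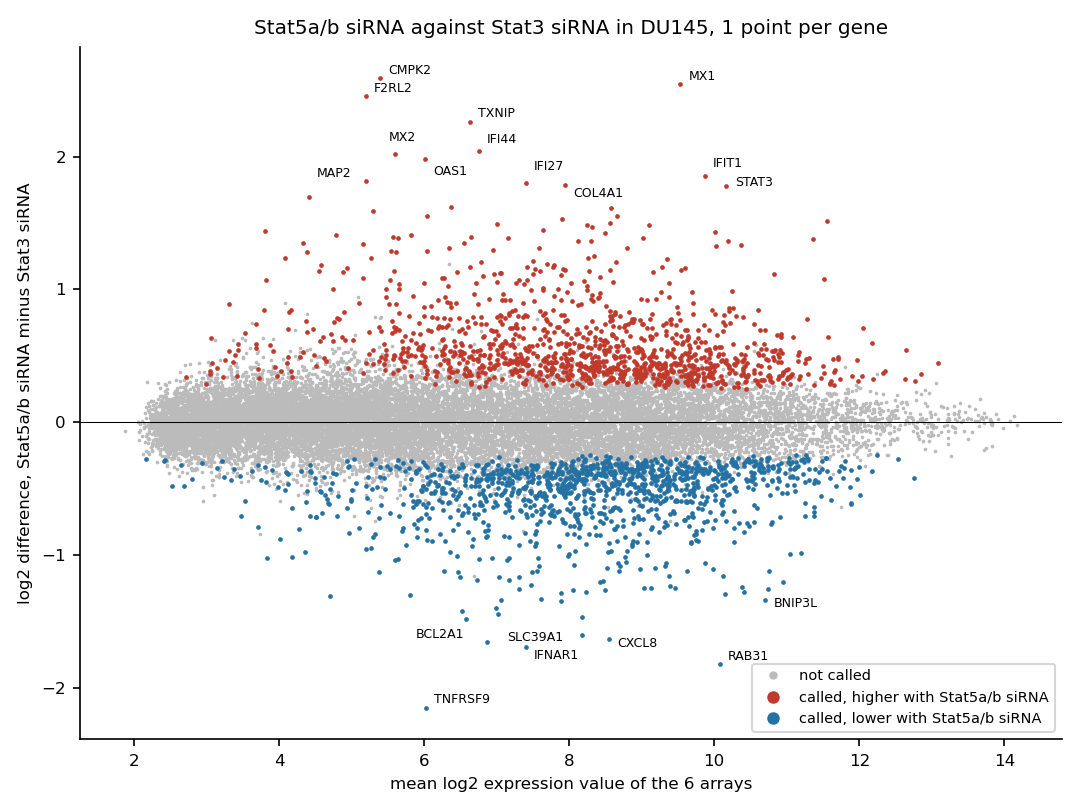
Log2 difference of Stat5a/b siRNA minus Stat3 siRNA (vertical axis) against the mean log2 expression value of the 6 arrays (horizontal axis), 1 point per gene, with called genes in colour and the largest differences named. Interferon-stimulated genes such as CMPK2 (2.59) and MX1 (2.55) stand at the top, and TNFRSF9 (-2.15) at the bottom.

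Antiviral genes led the rises. Of 41 measured interferon-stimulated effectors, 27 were called higher with Stat5a/b siRNA, 2 lower and 12 were not called, with a list median of 0.83 against 0.00024 over all genes, of which 5.95% were called higher. CMPK2, a mitochondrial nucleotide kinase, led the whole contrast. It was at 6.71, 6.82 and 6.52 with Stat5a/b siRNA and at 3.99, 4.25 and 4.04 with Stat3 siRNA, against 3.94, 4.02 and 4.68 with scramble. No Stat5a/b siRNA array came within 1 log2 unit of any other array, and the difference of 2.59 ± 0.18 was 6.02-fold (adjusted p = 2.4e-05). The Stat3 siRNA levels of CMPK2 were close to the KLK2 level described above as near the floor of the arrays, which limits how exactly the fold can be read.

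MX1 and MX2, dynamin-like GTPases that block viral replication, rose together. MX1 was at 11.07, 11.05 and 10.29 with Stat5a/b siRNA and 8.55, 8.48 and 7.75 with Stat3 siRNA, against 9.01, 9.21 and 8.51 with scramble (2.55 ± 0.27, adjusted p = 0.00024). The Stat5a/b siRNA arrays lay above all others, and in each group the replicate 3 array was the lowest. MX2 was at 6.87, 6.84 and 6.13 with Stat5a/b siRNA and 4.42, 4.99 and 4.37 with Stat3 siRNA, against 5.14, 5.18 and 5.28 with scramble (2.02 ± 0.21). IFIT1, which binds viral RNA that lacks cap methylation, was at 10.91, 10.93 and 10.56 with Stat5a/b siRNA and 9.08, 9.26 and 8.49 with Stat3 siRNA, against 9.49, 9.44 and 9.03 with scramble (1.86 ± 0.20).

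IFI44, an interferon-induced cytoplasmic protein, was at 8.01, 7.93 and 7.37 with Stat5a/b siRNA and 5.92, 6.09 and 5.19 with Stat3 siRNA, against 6.23, 6.55 and 6.04 with scramble (2.04 ± 0.24). IFI27 had the widest spread of the leading genes. It was at 9.02, 8.79 and 7.10 with Stat5a/b siRNA and 6.90, 6.90 and 5.71 with Stat3 siRNA, against 6.37, 6.66 and 6.07 with scramble. Its difference of 1.80 ± 0.47 (adjusted p = 0.032) lost its call in 5 of the 9 fits without 1 array, with adjusted p up to 0.108. Smaller and tighter rises were those of USP18, the protease that removes ISG15 and damps interferon receptor signalling (1.31 ± 0.10, adjusted p = 3.9e-05), PLSCR1, a phospholipid scramblase (1.12 ± 0.10), and PARP9, an ADP-ribosyltransferase family member (1.12 ± 0.11).

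The ubiquitin-like modifier ISG15 itself, named here after its values were seen, had 12.52, 12.55 and 11.84 with Stat5a/b siRNA and 11.05, 11.05 and 10.27 with Stat3 siRNA, against 11.23, 11.26 and 10.75 with scramble (1.51, adjusted p = 0.0033). The 2 members that fell were the exonuclease ISG20 (-0.78) and the guanylate-binding protein GBP2 (-0.44). Among the 12 members not called were IFITM1, a membrane protein that restricts viral entry, with a difference of 1.19 (adjusted p = 0.051), RSAD2, the antiviral enzyme viperin, with 0.33 (adjusted p = 0.14), and TRIM22 with 0.13.

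The mean of the 41 genes, relative to the Stat3 siRNA mean, was 1.09, 1.06 and 0.59 in the Stat5a/b siRNA arrays and 0.11, 0.14 and -0.25 in the Stat3 siRNA arrays, against 0.22, 0.27 and 0.05 in the scramble arrays. Replicate 3 was the lowest array of each group, and the Stat5a/b siRNA arrays lay above all others. Against scramble, 26 members were called higher with Stat5a/b siRNA, where 6.88% of all genes were. With Stat3 siRNA limma called 0 members higher (1 at an unadjusted p under 0.05), where 3.73% of all genes were. It called 4 lower (9 at an unadjusted p under 0.05), where 4.10% of all genes were. Without Stat5a/b replicate 3, 30 members were called higher, and without Stat5a/b replicate 1, 20 were. The part of the replicate 3 arrays in these counts was not tested beyond that.

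**Figure D3:**
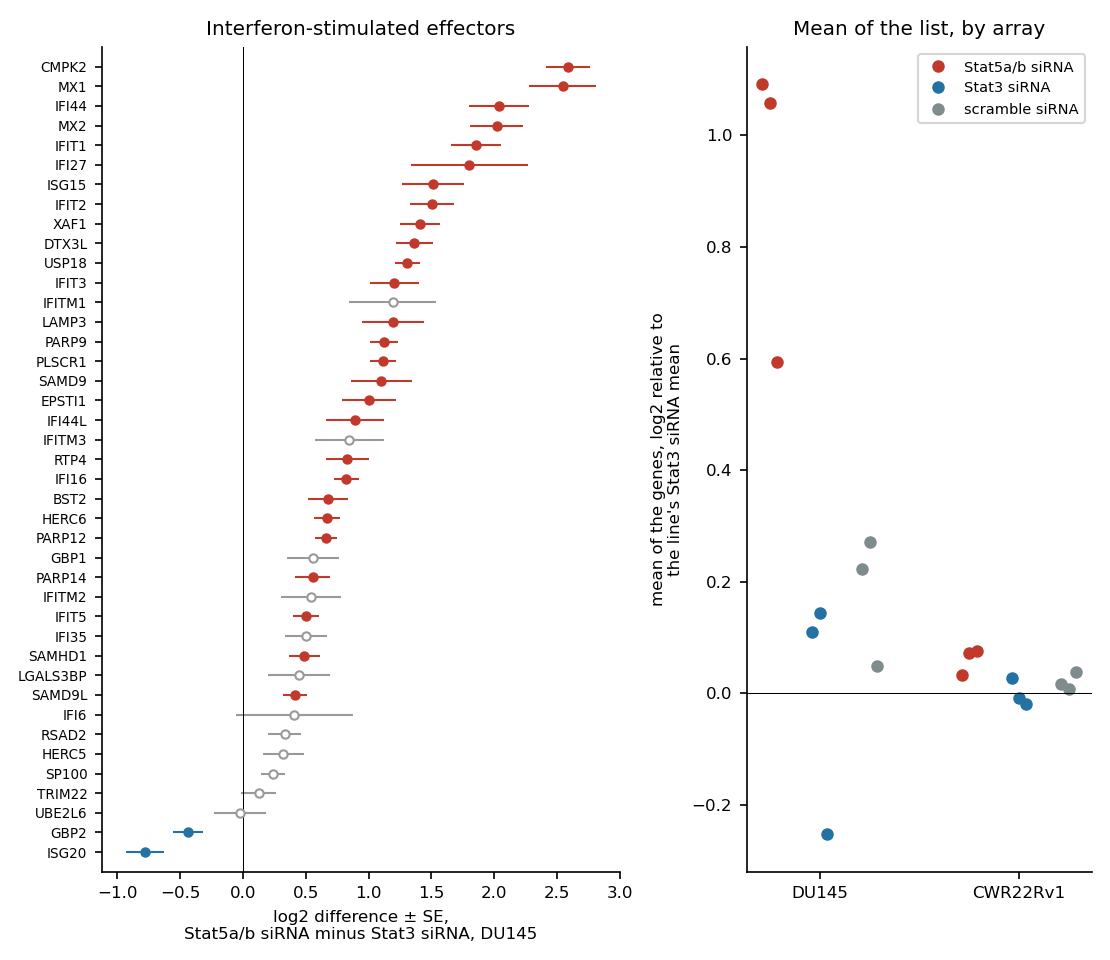
Left, log2 difference of Stat5a/b siRNA minus Stat3 siRNA in DU145 with its SE for each of the 41 interferon-stimulated effectors (filled points are called, open points are not). Right, the mean of these genes in each array relative to the Stat3 siRNA mean of its line: the DU145 Stat5a/b siRNA arrays lie between 0.59 and 1.09, above every other array.

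The promoters of these genes were read for the core letters of the ISRE, the element in front of antiviral genes. The letters GAAA, any 2 bases and GAAA again were searched on both strands in the 250 bases before the gene start in RefSeq (GRCh38.p14), available for 15384 of the genes tested. They occurred in 381 of those promoters (2.48%), in 21 of the 34 effectors with a promoter (61.8%) and in 14 of the 23 that rose (60.9%). The share was 4.0% over all genes called higher and 2.10% over all called lower. The effector list was made of interferon-stimulated genes, so its share above that of all promoters can follow from that choice alone. The share of the effectors that rose was near that of the whole list. The 1 effector with a promoter that was called lower also held the letters. The GAS letters TTCNNNGAA, searched in the same way, occurred in 6.03% of all promoters, in 6.83% of those of genes called higher and in 7.01% of those called lower. A match to both motifs at overlapping bases was found in 6 promoters, 3 of them of effectors. The windows below are from some, not all, of the 14 members that rose and held the letters. Each is 40 bases on the strand of the gene, with the ISRE matches in capitals (either orientation).
IFI44 (chr1:78649749-78649788, plus strand): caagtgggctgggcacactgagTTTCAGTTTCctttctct
IFIT1 (chr10:89392505-89392544, plus strand): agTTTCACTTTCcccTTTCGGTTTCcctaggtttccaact
IFI27 (chr14:94110626-94110665, plus strand): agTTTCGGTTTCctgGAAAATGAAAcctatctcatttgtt
ISG15 (chr1:1013375-1013414, plus strand): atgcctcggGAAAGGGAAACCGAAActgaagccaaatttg
IFIT3 (chr10:89327860-89327899, plus strand): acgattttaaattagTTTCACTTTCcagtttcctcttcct
PLSCR1 (chr3:146544662-146544701, minus strand): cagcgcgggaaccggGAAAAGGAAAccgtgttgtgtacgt
BST2 (chr19:17405730-17405769, minus strand): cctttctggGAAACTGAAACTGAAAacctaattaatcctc
The windows of IFIT1, IFI27, ISG15 and BST2 hold more than 1 match. IFIT3, which stabilises IFIT1 on RNA, rose by 1.21, and BST2, the tether that holds budding virus at the cell surface, rose by 0.68. The windows of CMPK2 and MX1, the strongest risers of the list, held no match of these letters.

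Receptors of double-stranded RNA and the enzymes it activates rose in part. Of 14 measured, limma called 5 higher and 0 lower (9 and 0 at an unadjusted p under 0.05), where 5.95% of all genes were higher, with a median of 0.44. OAS1, which makes the oligoadenylate that activates RNase L, was at 7.03, 7.43 and 6.55 with Stat5a/b siRNA and 5.12, 5.10 and 4.84 with Stat3 siRNA, against 5.76, 6.05 and 4.65 with scramble (1.98 ± 0.32, adjusted p = 0.0029). Its Stat5a/b siRNA arrays were above all others, although the scramble arrays ran widely. Its relative OAS3 rose by 1.39, the helicase DDX60 by 1.13, the endosomal receptor TLR3 by 0.70 and the cytosolic sensor IFIH1 by 0.52. In the 9 fits without 1 array, IFIH1 lost its call in 5 (adjusted p up to 0.127), DDX60 in 3 and TLR3 in 2. The count was 2 without Stat5a/b replicate 1 and 8 without Stat5a/b replicate 3. The promoters of OAS3, DDX60 and IFIH1 hold the ISRE letters, in capitals.
OAS3 (chr12:112938434-112938473, plus strand): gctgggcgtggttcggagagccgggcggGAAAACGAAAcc
DDX60 (chr4:168318781-168318820, minus strand): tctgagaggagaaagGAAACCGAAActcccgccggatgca
IFIH1 (chr2:162318685-162318724, minus strand): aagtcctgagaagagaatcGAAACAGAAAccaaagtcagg

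The type I interferon receptor chains IFNAR1 and IFNAR2 and the kinase JAK1 were lower, while their list as a whole was even in direction. Among 13 interferon receptor and signalling genes, 4 were called higher and 4 lower, with a median of -0.019. Of all genes, 5.95% were called higher and 6.08% lower. The receptor chain IFNAR1 was at 6.62, 6.44 and 6.60 with Stat5a/b siRNA and 8.20, 8.24 and 8.29 with Stat3 siRNA, against 7.66, 7.73 and 7.93 with scramble. The 3 groups did not overlap, and the difference was -1.69 ± 0.09 (adjusted p = 1.6e-05), a 3.23-fold lower level with Stat5a/b siRNA. Its partner chain IFNAR2 was at 9.49, 9.59 and 9.43 with Stat5a/b siRNA and 10.09, 10.12 and 10.11 with Stat3 siRNA, against 9.75, 9.87 and 9.75 with scramble (-0.60, adjusted p = 0.00077). The kinase JAK1, which the receptor needs to signal, had 9.37, 9.21 and 9.37 with Stat5a/b siRNA and 9.98, 9.89 and 9.87 with Stat3 siRNA, against 9.61, 9.58 and 9.62 with scramble (-0.60). For each of these 3 genes the Stat5a/b siRNA arrays were below scramble and the Stat3 siRNA arrays above it in the mean.

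The transcription factors IRF7 and IRF9 rose. IRF7, which induces the interferon alpha genes, was at 9.52, 9.64 and 9.0 with Stat5a/b siRNA and 8.01, 7.79 and 7.52 with Stat3 siRNA, against 8.31, 8.16 and 8.03 with scramble (1.61 ± 0.17, adjusted p = 0.00027). IRF9, the DNA-binding subunit of the ISRE-binding complex, was at 10.16, 10.22 and 9.97 with Stat5a/b siRNA and 9.08, 8.95 and 8.89 with Stat3 siRNA, against 9.06, 9.11 and 9.0 with scramble (1.15 ± 0.09, adjusted p = 5.8e-05). The Stat5a/b siRNA arrays stood apart at both genes, while the Stat3 siRNA and scramble arrays overlapped at IRF9. Class I antigen presentation, also fed by interferon, had 1 of 18 members called higher and 2 lower, where 5.95% and 6.08% of all genes were. The higher count was thus near that of all genes. It was HLA-E (0.48, a call lost in 2 of the 9 fits without 1 array). The lower members were the peptide-trimming enzymes ERAP1 (-0.57) and ERAP2 (-0.50).

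The largest fall belonged to the NF-kB group, and there the scramble arrays sided with Stat5a/b siRNA. TNFRSF9, the costimulatory receptor CD137, was at 5.13, 4.94 and 4.77 with Stat5a/b siRNA and 6.75, 7.30 and 7.24 with Stat3 siRNA, against 4.86, 5.23 and 5.23 with scramble. Every Stat3 siRNA array lay more than 1 log2 unit above every other array, and the difference was -2.15 ± 0.16 (adjusted p = 4.1e-05), a 4.44-fold lower level with Stat5a/b siRNA. BCL2A1, an anti-apoptotic BCL2 relative, was at 5.75, 5.67 and 6.68 with Stat5a/b siRNA and 7.50, 7.68 and 7.90 with Stat3 siRNA, against 5.55, 5.76 and 6.46 with scramble (-1.66 ± 0.28, adjusted p = 0.0040). CXCL8, a neutrophil chemokine, was at 7.08, 7.29 and 8.85 with Stat5a/b siRNA and 9.10, 9.17 and 9.83 with Stat3 siRNA, against 7.25, 7.43 and 8.46 with scramble. Replicate 3 was the highest CXCL8 array of each group, and the difference of -1.63 ± 0.45 (adjusted p = 0.041) lost its call in 6 of the 9 fits without 1 array, with adjusted p up to 0.134. Without Stat5a/b replicate 3 the differences of BCL2A1 and CXCL8 were -1.98 and -2.19. The CXCL8 probe set may also hybridise with related transcripts.

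Of 29 NF-kB targets and chemokines, limma called 8 lower and 0 higher with Stat5a/b siRNA (10 and 0 at an unadjusted p under 0.05), with a median of -0.17, where 6.08% of all genes were called lower. The count ran from 6 to 9 without 1 array. Against scramble, 8 of the 29 were called higher with Stat3 siRNA and 0 lower (12 and 1 at an unadjusted p under 0.05), where 3.73% of all genes were called higher, and with Stat5a/b siRNA 1 was called higher and 1 lower. The cytokine IL32 fell by 0.98, lymphotoxin beta (LTB) by 0.77 and the inhibitor NFKBIA by 0.64, and IL32 and NFKBIA were higher than scramble by 0.87 and 0.66 with Stat3 siRNA. The kB letters GGG, any 2 bases and TTTCC (both strands, 250 bases) occurred in 11 of the 23 promoters of the list (47.8%) and in 4 of the 7 that fell (57.1%), against 1.88% of all promoters. The list was made of NF-kB targets, so its share above that of all promoters can follow from that choice alone. The TNFRSF9 promoter is shown whole, with its kB match in capitals.
TNFRSF9 (chr1:7940840-7941089, minus strand): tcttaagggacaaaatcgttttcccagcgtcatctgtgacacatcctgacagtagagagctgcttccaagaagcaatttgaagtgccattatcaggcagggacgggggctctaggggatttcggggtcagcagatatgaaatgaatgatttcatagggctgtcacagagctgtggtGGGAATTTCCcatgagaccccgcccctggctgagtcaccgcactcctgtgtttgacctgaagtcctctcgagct
The CXCL8 window held no match of these letters.

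Several large rises fell in no interferon list. TXNIP, the arrestin-like inhibitor of thioredoxin and of glucose uptake, was at 7.93, 7.74 and 7.61 with Stat5a/b siRNA and 5.30, 5.43 and 5.76 with Stat3 siRNA, against 5.47, 5.56 and 5.53 with scramble. Only the Stat5a/b siRNA arrays were high, and the difference was 2.27 ± 0.12, 4.81-fold (adjusted p = 1.6e-05). Its relative ARRDC4, named after its values were seen, had 6.89, 6.90 and 7.19 with Stat5a/b siRNA and 5.80, 5.45 and 5.80 with Stat3 siRNA, against 4.91, 5.25 and 5.42 with scramble (1.31, adjusted p = 0.00039). These were the 2 called members of the 8 alpha-arrestin and MondoA genes, and limma called 0 lower (1 at an unadjusted p under 0.05). Over all genes 5.95% were called higher and 6.08% lower.

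F2RL2, the thrombin receptor family member PAR3, was at 6.52, 6.26 and 6.5 with Stat5a/b siRNA and 4.38, 3.63 and 3.90 with Stat3 siRNA, against 5.34, 4.89 and 5.81 with scramble. The scramble arrays lay between the siRNA groups without overlap, and the difference was 2.46 ± 0.23 (adjusted p = 0.00014). COL4A1, a basement membrane collagen, showed a like order, with 8.67, 8.87 and 8.95 with Stat5a/b siRNA and 7.13, 7.24 and 6.76 with Stat3 siRNA, against 7.70, 8.24 and 8.16 with scramble (1.79 ± 0.16). The microtubule protein MAP2 had 6.04, 5.61 and 6.68 with Stat5a/b siRNA and 4.31, 4.61 and 3.97 with Stat3 siRNA, against 5.19, 5.08 and 5.25 with scramble (1.81 ± 0.24). As at CMPK2, the Stat3 siRNA levels of F2RL2 and MAP2 were low, close to the floor of the arrays. HMGN5, a nucleosome-binding protein, moved on the Stat3 side. It was at 7.22, 7.11 and 7.22 with Stat5a/b siRNA and 5.38, 5.93 and 5.37 with Stat3 siRNA, against 6.8, 6.87 and 7.25 with scramble (1.62 ± 0.16). LIFR, the receptor of leukaemia inhibitory factor that signals to STAT3, did likewise, with 8.85, 8.85 and 8.70 with Stat5a/b siRNA and 7.76, 7.96 and 7.80 with Stat3 siRNA, against 8.78, 9.08 and 9.09 with scramble (0.96, adjusted p = 0.00032). The uncharacterised C9orf152 rose by 1.69 ± 0.39 and lost its call in 1 of the 9 fits without 1 array. Without Stat5a/b replicate 3 the differences of MAP2 and C9orf152 were 1.53 and 1.20.

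Most of the remaining large falls were low with Stat5a/b siRNA and near scramble with Stat3 siRNA. RAB31, a small GTPase of vesicle transport, was at 9.35, 9.31 and 8.84 with Stat5a/b siRNA and 11.05, 11.04 and 10.88 with Stat3 siRNA, against 10.97, 10.94 and 10.69 with scramble (-1.82 ± 0.14). SLC39A1, the zinc importer ZIP1, was at 7.4, 7.43 and 7.31 with Stat5a/b siRNA and 9.12, 8.88 and 8.95 with Stat3 siRNA, against 8.74, 8.83 and 8.75 with scramble (-1.6 ± 0.09, adjusted p = 1.6e-05). ENPP4, a nucleotide phosphodiesterase, had 7.43, 7.43 and 7.47 with Stat5a/b siRNA and 8.95, 8.83 and 8.95 with Stat3 siRNA, against 8.84, 9.03 and 9.12 with scramble (-1.47 ± 0.09). At none of the 3 genes did a Stat5a/b siRNA array reach the level of another array. CEP19, a centrosomal protein, fell by 1.48, BTRC, the F-box protein that marks beta-catenin and I-kB for degradation, by 1.44, PLCB1, a phospholipase C, by 1.4, RBM47, an RNA-binding protein, by 1.35 and NUDT11, a diphosphoinositol phosphatase, by 1.33. Among BCL2 relatives, BNIP3L, a mitophagy receptor, fell by 1.34 and the survival factor BCL2L2 by 1.34, whereas the death inducer BCL2L11 rose by 0.52. In all, 3 of 26 BCL2 family and death regulators were called higher and 4 lower, where 5.95% and 6.08% of all genes were.

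ADAM12, a membrane metalloprotease, was the exception on the Stat3 side. It was at 5.75, 5.95 and 5.75 with Stat5a/b siRNA and 7.28, 7.26 and 7.16 with Stat3 siRNA, against 5.80, 5.75 and 5.99 with scramble (-1.42 ± 0.09, adjusted p = 2.2e-05). The Stat5a/b siRNA and scramble arrays overlapped, and every Stat3 siRNA array lay above them. Of the 30 largest differences, 20 genes had further probe sets, 37 in all. Of these, 32 differed in the same direction, 21 were called in the same direction and 0 in the opposite one.

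Part of the cholesterol synthesis genes fell with Stat5a/b siRNA. Of 21 measured, limma called 8 lower and 0 higher (14 and 0 at an unadjusted p under 0.05), where 6.08% of all genes were lower, with a median of -0.33. DHCR7, the last enzyme of the cholesterol pathway, was at 8.75, 8.78 and 8.85 with Stat5a/b siRNA and 10.05, 9.84 and 9.96 with Stat3 siRNA, against 10.27, 10.30 and 10.30 with scramble (-1.16 ± 0.08, adjusted p = 2.4e-05). The 3 groups did not overlap, with the Stat5a/b siRNA arrays lowest. Squalene epoxidase (SQLE) fell by 0.71, lanosterol synthase (LSS) by 0.66, the sterol isomerase EBP by 0.54 and farnesyl diphosphate synthase (FDPS) by 0.45. SREBF2, the transcription factor of the pathway, had a difference of -0.34 and was not called (adjusted p = 0.051). Against scramble, 14 of the 21 were called lower with Stat5a/b siRNA, where 7.67% of all genes were, and 3 with Stat3 siRNA, where 4.10% of all genes were. Without Stat5a/b replicate 3, 13 members were called lower in the contrast, and without Stat5a/b replicate 2, 6 were. The calls of SQLE and LSS were lost when the probe sets of a gene were averaged.

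Part of the NRF2 antioxidant response genes were higher with Stat5a/b siRNA than with Stat3 siRNA, and the list moved on both sides of scramble. Of 25 measured, 11 were called higher and 1 lower, where 5.95% and 6.08% of all genes were, with a median of 0.31. The higher count was 7 without Stat5a/b replicate 1. Against scramble, 7 were called higher and 2 lower with Stat5a/b siRNA (median 0.12), where 6.88% and 7.67% of all genes were. With Stat3 siRNA limma called 0 higher and 6 lower (0 and 9 at an unadjusted p under 0.05, median -0.16), where 3.73% and 4.10% of all genes were. SRXN1, the reductase of oxidised peroxiredoxins, was at 12.07, 12.01 and 12.07 with Stat5a/b siRNA and 11.01, 10.96 and 10.96 with Stat3 siRNA, against 11.07, 10.99 and 11.02 with scramble (1.08 ± 0.07, adjusted p = 2.2e-05). SLC7A11, the cystine importer, was at 10.90, 10.99 and 11.21 with Stat5a/b siRNA and 9.92, 9.58 and 9.59 with Stat3 siRNA, against 10.26, 10.38 and 10.24 with scramble (1.34 ± 0.12). Both genes had Stat5a/b siRNA arrays above all others, and at SLC7A11 the Stat3 siRNA arrays were also below scramble. Heme oxygenase (HMOX1) rose by 1.36, OSGIN1 by 1.05 and the glutathione synthesis subunit GCLM by 0.54. The member that fell was the thioredoxin reductase TXNRD1 (-0.42). Of 14 aldo-keto reductases and aldehyde dehydrogenases, 3 rose, AKR1B10 by 1.56, AKR1C1 by 1.24 and AKR1C2 by 1.17, and the retinoic acid-forming ALDH1A3 fell by 1.11. AKR1C1 and AKR1C2 are near-identical in sequence, and their probe sets may mix them.

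Part of the amino acid and endoplasmic reticulum stress genes rose as well. In the unfolded protein and integrated stress response list, 12 of 28 members were called higher and 3 lower, where 5.95% and 6.08% of all genes were, with a median of 0.28. The reticulum chaperone DNAJB9 rose by 0.92 ± 0.08, the transcription factor CEBPB by 0.66 ± 0.08, asparagine synthetase (ASNS) by 0.64 ± 0.09 and the serine synthesis enzyme PSAT1 by 0.46 ± 0.07. The lipoprotein receptor VLDLR fell by 0.85. CEBPB was uniform, at 11.16, 11.23 and 11.19 with Stat5a/b siRNA and 10.54, 10.53 and 10.52 with Stat3 siRNA, against 10.69, 10.71 and 10.55 with scramble. Of 13 SLC7-type amino acid transporters and partners, limma called 5 higher and 0 lower (7 and 0 at an unadjusted p under 0.05), among them SLC3A2, the heavy chain that SLC7A11 requires (0.56), and the glutamine carrier SLC1A5 (0.55). The letters TGATGNAA, the core of the amino acid response element, occurred in the 250 bases before the start of 4 of the 12 stress genes that rose (33.3%), in 4 of the 26 promoters of the whole list (15.4%) and in 2.31% of all promoters. The list was made of stress response genes, so its share above that of all promoters can follow from that choice alone. The 4 windows are given with the match in capitals, on either strand.
CHAC1 (chr15:40953246-40953285, plus strand): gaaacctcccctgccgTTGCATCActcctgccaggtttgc
ASNS (chr7:97872453-97872492, minus strand): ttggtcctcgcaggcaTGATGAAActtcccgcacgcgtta
ATF3 (chr1:212565200-212565239, plus strand): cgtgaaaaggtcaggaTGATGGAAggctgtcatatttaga
HERPUD1 (chr16:56931950-56931989, plus strand): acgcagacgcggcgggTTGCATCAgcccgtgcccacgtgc
CHAC1, an enzyme that degrades glutathione, rose by 0.69, and the stress factor ATF3 by 0.63. ATF3 lost its call in 6 of the 9 fits without 1 array (adjusted p up to 0.127), with a difference of 0.41 without Stat5a/b replicate 3.

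Transcripts of 5 RNA interference proteins were called. Of 12 measured, 1 was higher and 4 lower, where 5.95% and 6.08% of all genes were, and 7 were not called. The slicer AGO2 was at 6.84, 6.88 and 7.41 with Stat5a/b siRNA and 8.10, 8.45 and 7.82 with Stat3 siRNA, against 8.10, 7.83 and 7.6 with scramble (-1.09 ± 0.20, adjusted p = 0.0054), and its difference was -1.27 without Stat5a/b replicate 3. TNRC6A, a GW182 protein that joins Argonaute to the deadenylases, was at 10.04, 10.17 and 10.31 with Stat5a/b siRNA and 8.89, 9.01 and 9.14 with Stat3 siRNA, against 9.60, 9.61 and 9.76 with scramble (1.16 ± 0.10). Its paralogue TNRC6B ran opposite, at 6.84, 7.13 and 7.0 with Stat5a/b siRNA and 7.95, 8.34 and 8.04 with Stat3 siRNA, against 7.78, 7.55 and 7.46 with scramble (-1.12 ± 0.13). At both paralogues the scramble arrays lay between the siRNA groups without overlap. TNRC6C fell by 0.74, a call lost when its probe sets were averaged, and AGO1 by 0.62.

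Of 29 collagen and matrix genes, 6 were called lower and 2 higher, where 6.08% of all genes were lower and 5.95% higher, so the higher count was near that of all genes. COL6A1 was at 8.50, 8.56 and 8.45 with Stat5a/b siRNA and 9.96, 9.59 and 9.71 with Stat3 siRNA, against 9.72, 9.82 and 9.67 with scramble (-1.25 ± 0.10). COL12A1 fell by 1.13 and tenascin C (TNC) by 1.00, and COL1A1 rose by 0.86, and the calls of COL12A1 and COL1A1 were lost when probe sets were averaged. Of 18 laminins and integrins, limma called 5 lower, where 6.08% of all genes were, and 0 higher (7 and 2 at an unadjusted p under 0.05), and 2 (without Stat3 replicate 1) to 4 lower without 1 array. They were led by the fibronectin receptor chain ITGA5 (-0.79) and the laminin receptor chain ITGA3 (-0.52). The TGF-beta receptors TGFBR2 and TGFBR1 fell by 0.78 and 0.64. Of 17 androgen-responsive and prostate lineage genes, limma called 5 lower and 0 higher (6 and 0 at an unadjusted p under 0.05), where 6.08% of all genes were lower, led by the elongation factor ELL2 (-0.92, a call lost in 2 of the 9 fits without 1 array). The count was 0 (without Stat5a/b replicate 1) to 4 without 1 array.

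Of the textbook targets of STAT3 and STAT5, 22 of 29 and 17 of 22 were not called, where 12% of all genes were called. Of 29 STAT3 targets, 6 were called higher and 1 lower, and of 22 STAT5 targets, 4 were called higher and 1 lower, with medians of 0.081 and 0.057, where 5.95% of all genes were higher and 6.08% lower. The 6 were 3 without Stat3 replicate 1. The lists share genes. The member that fell in both was CCND1, cyclin D1, at 9.37, 9.31 and 9.32 with Stat5a/b siRNA and 10.32, 10.15 and 10.21 with Stat3 siRNA, against 9.90, 9.81 and 10.00 with scramble (-0.89 ± 0.08, adjusted p = 0.00012). It was below scramble with Stat5a/b siRNA and above it with Stat3 siRNA. Against scramble, 1 of the 29 STAT3 targets was called higher and 5 lower with Stat3 siRNA, where 3.73% and 4.10% of all genes were. Of the 22 STAT5 targets, 3 were called higher and 2 lower with Stat5a/b siRNA against scramble, where 6.88% and 7.67% of all genes were. In the contrast itself, further textbook genes moved as follows. The kinase PIM1 rose by 0.48, the survival factor BCL2L1 by 0.44 and the repressor BCL6 by 0.45, and the BCL2L1 call was lost when its probe sets were averaged and that of BCL6 in 4 of the 9 fits without 1 array. The feedback inhibitors SOCS3 and CISH had differences of 0.06 (adjusted p = 0.82) and 0.24 (adjusted p = 0.075). MYC (0.05), MCL1 (0.28), BIRC5 (0.02), CDKN1A (-0.29), VIM (-0.12) and IL6 (0.21) were not called. CDH1, E-cadherin, was at 8.92, 9.09 and 8.74 with Stat5a/b siRNA and 9.22, 9.12 and 9.0 with Stat3 siRNA, against 10.07, 10.15 and 10.07 with scramble. Both siRNA groups were below every scramble array by a similar amount, and the difference between them was -0.20 (adjusted p = 0.26).

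Cell cycle genes had medians near 0 in the DU145 contrast, with both siRNA groups above scramble. Of 41 DNA replication genes, limma called 0 higher and 6 lower (4 and 9 at an unadjusted p under 0.05), where 5.95% and 6.08% of all genes were. The lower count was 2 (without Stat5a/b replicate 2) to 5 without 1 array. Of 32 mitosis genes 1 was higher and 3 lower. The lists had medians of -0.0023 and -0.061. The kinases PLK1 and BUB1B fell by 0.57 and 0.55. Against scramble, the replication median was 0.22 with Stat5a/b siRNA (12 called higher, 1 lower) and 0.17 with Stat3 siRNA (10 and 0). The mitosis median was 0.16 with Stat5a/b siRNA (7 and 2) and 0.20 with Stat3 siRNA (7 and 1). Of all genes, 6.88% were called higher than scramble with Stat5a/b siRNA and 3.73% with Stat3 siRNA. Of 14 keratins, limma called 0 in either direction of the contrast (3 higher and 2 lower at an unadjusted p under 0.05). Of 17 immediate-early factors, 3 were called higher and 1 lower. The lower count was near the 6.08% of all genes, and 5.95% of all genes were higher. KLF4, an epithelial transcription factor, was up by 1.02. The growth factor-induced EGR1 was down (-1.11, limma adjusted p = 0.013, lost in 3 of the 9 fits without 1 array). Of 19 p53 targets, 4 were called higher and 4 lower, where 5.95% and 6.08% of all genes were. Among them were the stress cytokine GDF15 at 1.28 and the DNA damage-binding protein DDB2 at -0.64. Metallothioneins had 2 of 10 members called higher, where 5.95% of all genes were. Their list mean was highest in the replicate 3 array of each group. It was 0.62 there with Stat5a/b siRNA and 0.40 with Stat3 siRNA, against 0.17 with scramble.

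**Figure D4:**
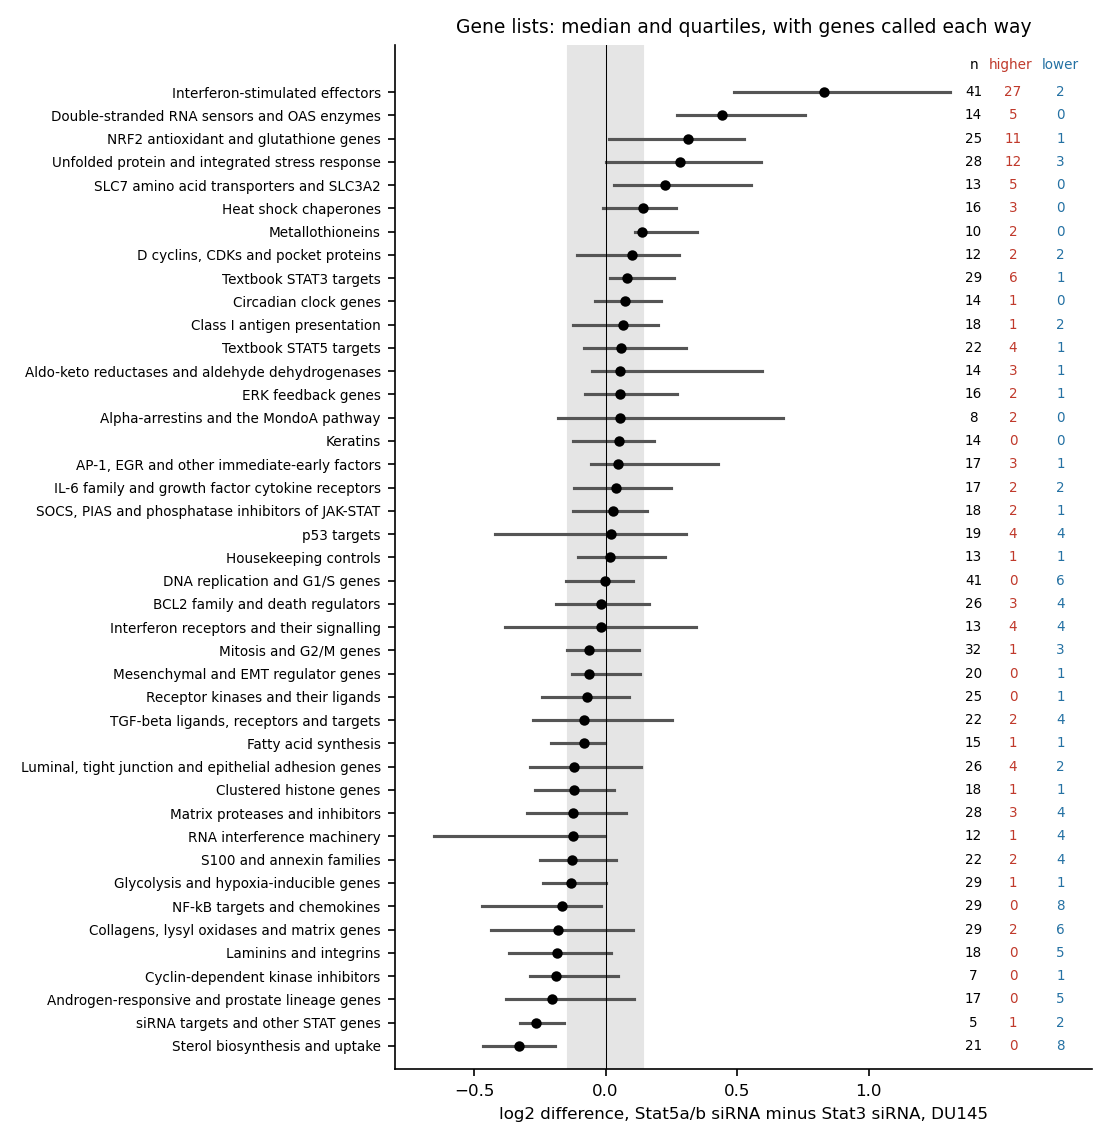
Median (points) and quartiles (lines) of the log2 difference of Stat5a/b siRNA minus Stat3 siRNA in DU145 for each gene list, with the number of genes measured and of genes called higher or lower beside it. The grey band spans the quartiles of all genes, -0.14 to 0.14; interferon-stimulated effectors stand highest at 0.83 and sterol biosynthesis lies low at -0.33.

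The same contrast was made in CWR22Rv1, whose arrays did not enter the DU145 fit. There 3775 genes (19.1%) were called, 1825 higher (9.23%) and 1950 lower (9.86%). DU145 arrays spread more, with a median SD per gene of 0.114 with Stat5a/b siRNA and 0.126 with Stat3 siRNA, against 0.082 and 0.073 in CWR22Rv1, so counts of calls are not compared between the lines. The difference of the contrast between the lines, DU145 minus CWR22Rv1, was tested in 1 fit over all 18 arrays and was called at 2086 genes (10.5%), 1117 (5.65%) of them higher in DU145 and 969 (4.90%) lower.

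The contrast in STAT3 and STAT5B was called in both lines and was wider in DU145. STAT3 differed by 1.78 in DU145 and 1.27 in CWR22Rv1, and STAT5B by -1.25 in DU145 and -0.79 in CWR22Rv1, with line differences of 0.51 (adjusted p = 0.017) and -0.47 (adjusted p = 0.029). STAT5A was not called in CWR22Rv1, with a difference of -0.22 (adjusted p = 0.37) and overlapping arrays, and its line difference of -0.10 was not called either (adjusted p = 0.79).

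The antiviral rise differed between the lines. Of the 41 effectors, 22 had a called line difference, all 22 of them higher in DU145, where 5.65% of all genes were, and limma called 0 lower (2 at an unadjusted p under 0.05). In CWR22Rv1, 5 were called higher and 4 lower, with a median of 0.058, where 9.23% and 9.86% of all genes were called. The list mean in CWR22Rv1, relative to its Stat3 siRNA mean, was 0.03, 0.07 and 0.08 with Stat5a/b siRNA and 0.03, -0.01 and -0.02 with Stat3 siRNA. CMPK2 differed by 0.13 in CWR22Rv1 and MX1 by 0.23, with line differences of 2.46 (adjusted p = 5.5e-06) and 2.31 (adjusted p = 0.00040). IRF7 fell in CWR22Rv1, with a difference of -0.59, and its line difference was 2.21 (adjusted p = 1.4e-05). TXNIP differed by 0.14 in CWR22Rv1 and F2RL2 by -0.07.

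The NF-kB falls were also wider in DU145. TNFRSF9 differed by 0.03 in CWR22Rv1, BCL2A1 by 0.06 and ADAM12 by 0.12, and all 3 line differences were called. Of the 29 NF-kB genes, 6 had a called line difference, all 6 of them lower in DU145, where 4.90% of all genes were. CXCL8 fell in CWR22Rv1 as well (-0.69, adjusted p = 0.0034), and its line difference was not called (-0.94, adjusted p = 0.29). ST3GAL5, which makes the ganglioside GM3, had opposite directions, -1.03 in DU145 and 0.52 in CWR22Rv1, with a line difference of -1.55 (adjusted p = 9.2e-06).

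Other falls were shared. IFNAR1 fell in CWR22Rv1 by 0.89, RAB31 by 1.21, ENPP4 by 1.16, CEP19 by 1.08, SLC39A1 by 0.82 and BNIP3L by 1.02. The line differences of RAB31, ENPP4, CEP19 and BNIP3L were not called, with estimates of -0.61, -0.30, -0.40 and -0.32, and those of IFNAR1 (-0.80) and SLC39A1 (-0.78) were. TNRC6A (0.42), TNRC6B (-0.84), AGO1 (-0.61) and AGO2 (-0.40) had the same directions in CWR22Rv1 as in DU145, and all 4 were called there.

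Sterol, stress and cell cycle genes also had line differences. Over all genes, 5.65% had a called line difference higher in DU145 and 4.90% lower, and 9.23% were called higher and 9.86% lower in CWR22Rv1. Of the 21 sterol genes, 12 had a called line difference, all 12 lower in DU145, and in CWR22Rv1 5 were called higher and 1 lower. Of the 28 stress response genes, 14 had a called line difference higher in DU145 and 1 lower, and in CWR22Rv1 4 were called higher and 16 lower, with a median of -0.20. Of the 41 replication genes 31 and of the 32 mitosis genes 29 were called lower in CWR22Rv1, and 17 and 12 genes of these lists had a called line difference, each higher in DU145. BUB1B and PLK1 nevertheless fell in both lines, by 0.53 and 0.45 in CWR22Rv1.

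**Figure D5:**
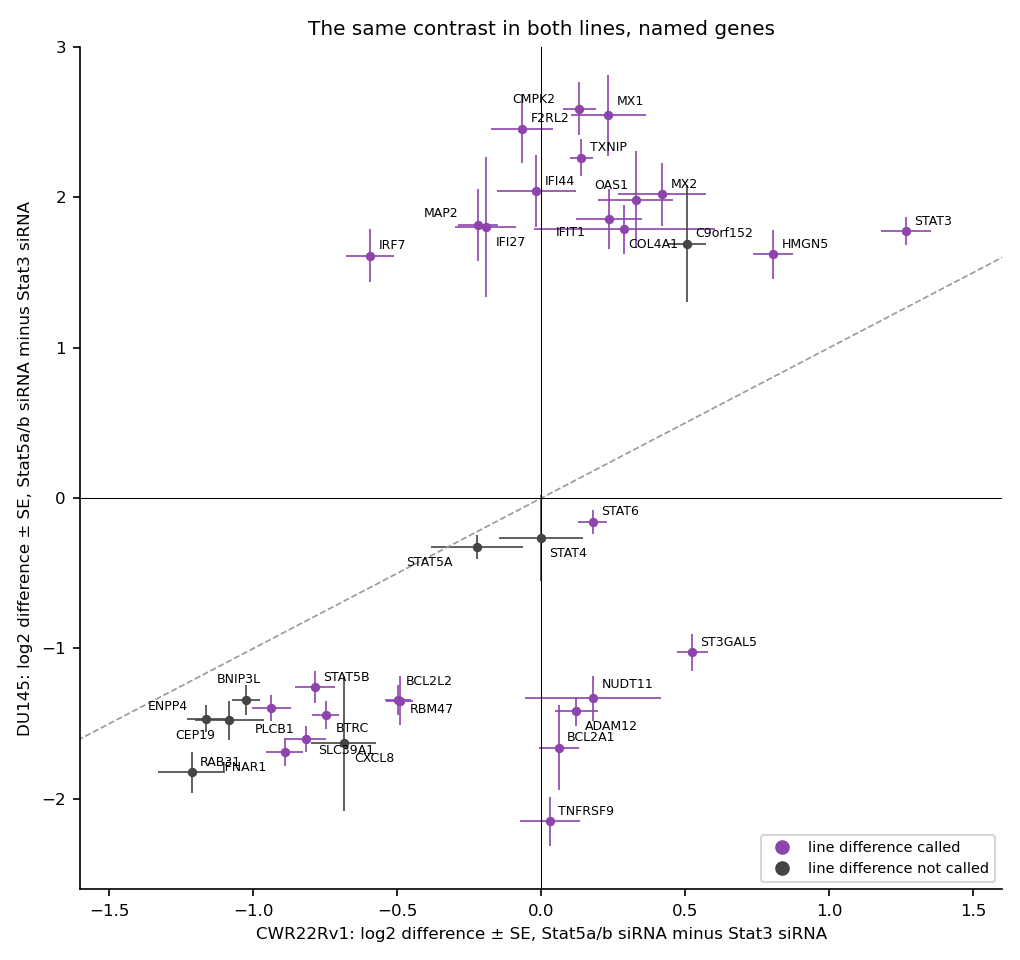
Log2 difference of Stat5a/b siRNA minus Stat3 siRNA in DU145 (vertical axis) against the same difference in CWR22Rv1 (horizontal axis) for the STAT genes, the largest DU145 differences and the largest line differences, with SE bars and the line of equality dashed. CMPK2, MX1, F2RL2 and TXNIP lie high in DU145 and near 0 in CWR22Rv1, whereas RAB31, ENPP4 and CEP19 fall in both lines.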

How the data were processed

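Transcripts were measured in 18 samples on Affymetrix U133 Plus 2.0 arrays, 3 per siRNA and line. The values the authors deposited are log2 expression, 1 per probe set. RMA and limma are named, with no version, in the submitters' processing notes. RMA corrects background, quantile-normalises and summarises probes, and can narrow differences at dim probe sets. How far a value lay above background was not used here, and the number of arrays limits the precision, with a median SE of 0.109. Of 54675 probe sets, 41091 had 1 gene symbol, 1801 several and 62 were controls. Where several single-symbol probe sets read a gene, the one of highest mean on the 18 arrays stood for it, which gave 19775 genes.

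The contrast was tested in limma 3.58.1 (R 4.3.3, lmFit and eBayes, 1 mean per group) on the 9 DU145 arrays, two-sided, with p-values adjusted by Benjamini-Hochberg across these genes and calls at an adjusted p under 0.05. The scramble arrays entered only the spread. CWR22Rv1 was fitted alone, and the line difference over all 18 arrays. In simulated data of the DU145 contrast with 19775 genes, the fit recovered 99 of 100 genes changed by 1 log2 unit and 52 of 100 changed by 0.5, with 9 false calls. The simulation drew independent normal errors with the variances of the fit and changed 200 genes. Deviations shared between arrays and a number of changes as large as the called genes were not simulated, so these counts need not hold for the data.

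Members and gene lists were chosen with earlier results of these data known. Genes were named by rule: the STAT genes, the 15 largest called rises and falls without overlap, up to 5 called members by adjusted p of each list with 3 or more, a set of textbook genes, and the 5 largest line differences each way. ISG15, ISG20, GBP2, IFITM1, RSAD2, TRIM22, IFIT3, BST2, ARRDC4, TXNRD1, CHAC1, HERPUD1, CLDN5, MS4A1, KRT18, EPCAM, KLK2 and KLK3 were named beyond that rule, after their values were seen. Over all genes the deviations of same-numbered Stat5a/b and Stat3 siRNA arrays correlated at 0.012, 0.087 and 0.028, under the 0.1 required to take the numbers as pairs, although replicate 3 deviated the same way in every DU145 group at the interferon-stimulated effectors, metallothioneins and CXCL8. Those of Stat3 siRNA and scramble did, from the data alone (0.197, 0.158 and 0.328). Alternatives changed the samples in the fit, normalisation, probe set choice, a level filter, the variance prior and single arrays.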

Additional observations from a re-analysis of the deposited data

Results flagged for a closer look

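These genes were singled out because the contrast of Stat5a/b siRNA minus Stat3 siRNA differed between the lines in the fit over all 18 arrays, with an adjusted p under 0.05 in limma. Values are log2 differences, DU145 minus CWR22Rv1. Interferon-stimulated genes and their regulator were higher in DU145: CMPK2 by 2.46, MX1 by 2.31, IRF7 by 2.21, IFI44 by 2.06, IFI27 by 2.00, OAS1 by 1.66, IFIT1 by 1.62 and MX2 by 1.6. The same held for F2RL2 at 2.52, TXNIP at 2.13, MAP2 at 2.03, COL4A1 at 1.5, HMGN5 at 0.82 and STAT3 at 0.51.

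Differences below 0 were those of TNFRSF9 at -2.18, BCL2A1 at -1.72, ST3GAL5 at -1.55, ADAM12 at -1.54 and NUDT11 at -1.51. Further such values were RBM47 at -0.86, BCL2L2 at -0.84, IFNAR1 at -0.80, SLC39A1 at -0.78, BTRC at -0.69, STAT5B at -0.47, PLCB1 at -0.46 and STAT6 at -0.34. No array was tested as an outlier, since groups of 3 are too small for that test.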

How the results depend on the processing

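Of the 149 named genes that were called, 94 kept their direction and call in every alternative run, 55 lost the call in at least 1, and 0 changed direction. The contrast gave 2379 called genes, 4379 when all 18 arrays shared the spread (2346 of them in both), 1781 from its 6 arrays alone, 2957 with a replicate block (2300 in both), 2560 after quantile and 2563 after cyclic loess normalisation, 2001 from the mean of a gene's probe sets, 3067 of genes above the median level and 3207 with a mean-variance trend. Without 1 array it gave 1451 (without Stat5a/b replicate 1; 1476 without replicate 2) to 2231. Not every array deviated most with its own number, so the block is only a hint from the data. With it, IFI27 and CXCL8 had adjusted p of 0.0041 and 0.0015, and 32 effectors were called higher. Stat5a/b siRNA minus scramble gave 2877, 4805 with all 18 arrays, 3431 with the block and 1591 to 2950 without 1 array. Stat3 siRNA minus scramble gave 1549, and 3117, 1969 and 791 to 1734 in the same alternatives. Counts fell by over 1.5 times without scramble replicate 1 or 2 in both, without Stat5a/b replicate 1 or 2 in the first (1810 and 1770), and without Stat3 replicate 2 or 3 in the second (988 and 869). CWR22Rv1 gave 3775, 2126 with all 18 arrays and 2584 to 3490 without 1 array, and 58.5% of its calls were higher after quantile normalisation against 48.3%. The line difference gave 2086, 2739 with the block and 1453 to 2141 without 1 array. Genes that were not called changed sign: without 1 array STAT4 ran from -0.47 to 0.037 (without Stat5a/b replicate 3), SOCS3 from -0.079 to 0.21, MYC from -0.17 to 0.18 (-0.070 without Stat3 replicate 2) and BIRC5 from -0.048 to 0.053, and BIRC5 was -0.067 with averaged probe sets. The cause was not tested. STAT5A had adjusted p up to 0.083, and COL12A1, COL1A1, TGFBR1, TNRC6C, SQLE, LSS and BCL2L1 lost their calls with averaged probe sets.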
